A study of Rattus norvegicus with 6 samples.

Results

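Osteochondrogenic and vascular calcification genes were examined in cultured vascular smooth muscle (VSM) cells. The cells came from the soleus feed artery (SFA), the vessel that carries blood into the soleus muscle of the hindlimb. The group held 10 genes chosen by symbol (Runx2, Sox9, Msx1, Msx2, Spp1, Alpl, Mgp, Enpp1, Ankh and Bmp2), and each of the 10 was found once among the 14475 genes of the count table. Cells came from male Fischer 344 rats of 2 ages, young at 4 months (n = 3 rats) and old at 24 months (n = 3 rats), and no treatment or genetic change separated the groups. All cells had been grown in serum-containing medium, so the values describe cultured cells and not the artery wall. The comparison asks whether the mRNA of these genes differs between young and old VSM cells.

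Calcification of an artery is a regulated process in which smooth muscle cells can lose contractile genes and take up transcription factors and matrix proteins of bone and cartilage. Whether mineral forms depends on the balance of inorganic phosphate, which feeds hydroxyapatite, and inorganic pyrophosphate, which blocks its growth. Enpp1 makes pyrophosphate outside the cell from nucleotides, Ankh brings about its release, and Alpl (tissue-nonspecific alkaline phosphatase) breaks it down. Bmp2 is a secreted inducer of bone formation, Runx2, Sox9, Msx1 and Msx2 are transcription factors of bone, cartilage and limb development, and Spp1 (osteopontin) and Mgp (matrix Gla protein) are secreted proteins that restrain mineral growth.

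Each library held between 44235674 and 59700887 counts on genes. Levels are given as CPM, counts set relative to the library total after TMM scaling, as mean ± SD over 3 libraries. CPM is not divided by gene length, so levels are compared between libraries and not between genes. A gene is said to be called where its adjusted p was under 0.05 and its absolute log2 fold change at least 1, the thresholds of the study. The smooth muscle label was checked on 8 markers, and all 8 were detected in each library, with a summed level of 11207 to 20995 CPM in young and 3448 to 5562 CPM in old cells. Of these markers 7 were lower in old without overlap of the groups, whereas Des, at 1.98 CPM in young and 1.84 CPM in old, was near the lower end of detection. Fibroblast markers (8 of 9 listed genes in the table) summed to 194 to 503 CPM in young and 586 to 1477 CPM in old. Both marker sums moved with age across the same libraries as the calcification genes, and their part in the differences below was not tested. Endothelial markers (5 of 9, Cdh5 and Cldn5 not among them) and macrophage markers (3 of 9, Ptprc and Adgre1 not among them) were low. The endothelial sum was 4.54 to 15.2 CPM in young and 12.7 to 18.3 CPM in old, and the macrophage sum 5.13 to 16.0 CPM in young and 10.4 to 16.8 CPM in old. Skeletal muscle and myoblast markers (3 of 8, Myod1 and Pax7 not among them) summed to 3.26 to 4.32 CPM in young and 2.59 to 3.19 CPM in old, while 3 Schwann cell markers (Sox10 not among them) summed to 12.5 to 75.2 CPM in young and 54.3 to 85.4 CPM in old, with S100b the highest of them. In cultures sequenced as a whole, fewer cells of a type and less RNA per cell cannot be told apart.

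Enpp1, Msx1 and Spp1 were lower in old VSM cells with no overlap between the groups, Runx2 had nearly the same mean at both ages, and Mgp differed more between cultures of the same age than between the ages. By the quasi-likelihood test of edgeR 0 of the 10 were called, and 1 gene of the whole table was (0.00691%). The DESeq2 Wald test, which the study used, called 2 of the 10, Enpp1 and Msx1, both lower in old. It called 5.56% of all genes, 3.31% of all genes in the downward direction. limma-voom called 0 of the 10 and 0 genes of the whole table. At an unadjusted p under 0.05, edgeR gave 4 of the 10 (Sox9, Msx1, Spp1 and Enpp1), all lower in old. The same limit was passed by 22.6% of all genes in either direction, and by 11.5% of all genes with a lower level in old. The 3 genes whose groups did not overlap stand against 29.2% of all genes in either direction and 14.7% of all genes in the downward direction. The median log2 fold change of the 10 genes was -0.58, compared with 0.02 over all genes. Of the 10 fold changes 9 were below 0, although that of Msx2 was too close to 0 to have a direction. Over all genes 6941 of 14475 were below 0. The count among the 10 was 6 without young replicate 3. It was 8 without old replicate 3, with limma-voom, with scaling by library size only, or with replicate number as a block.

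**Figure D1:**
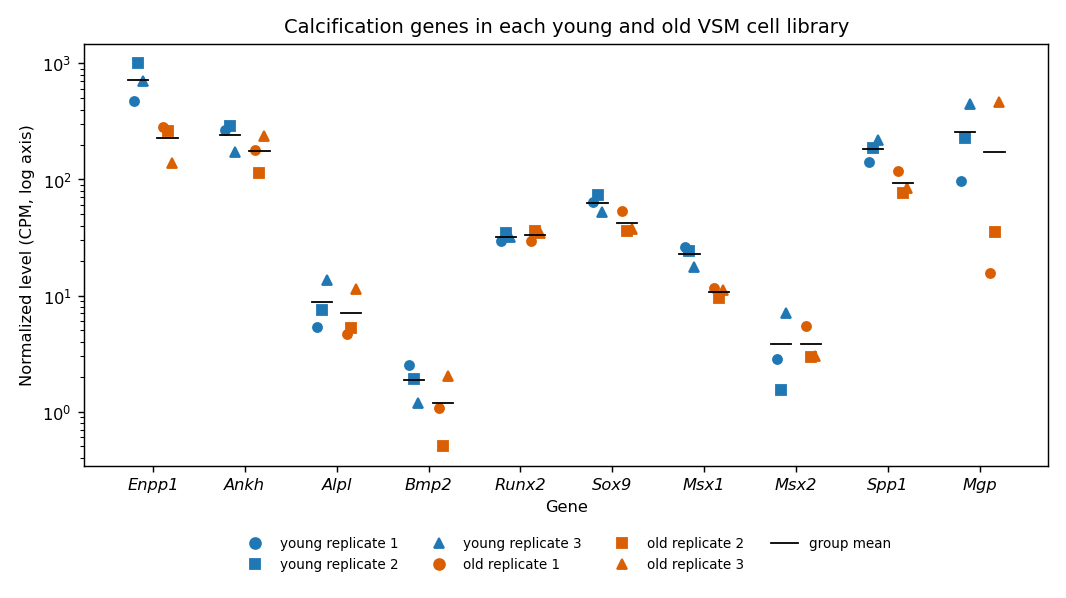
Normalized level (CPM, log axis) of each of the 10 calcification genes in the 3 young (blue) and 3 old (orange) libraries, with a marker shape for each replicate number and a bar for each group mean. Enpp1, Msx1 and Spp1 show young libraries above all old ones, while Mgp spans 15.5 to 463 CPM within the old group.

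The genes of pyrophosphate turnover were taken first. Enpp1 (ENSRNOG00000013994), the enzyme that generates extracellular pyrophosphate, had 471, 1006 and 699 CPM in young replicates 1, 2 and 3 and 281, 261 and 139 CPM in old replicates 1, 2 and 3. Each young library lay above each old one, and old replicate 3 was the lowest. The means were 725 ± 269 CPM in young and 227 ± 76.9 CPM in old (SD, n = 3 each), 3.20-fold lower in old. The log2 fold change was -1.68 (95% interval -2.57 to -0.79, standard error 0.37), with an adjusted p of 0.0924 from edgeR and 0.000208 from DESeq2. With each library left out in turn it stayed between -1.91 and -1.37, and DESeq2 called Enpp1 each time.

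Ankh (ENSRNOG00000010960), a membrane protein needed for the release of nucleotides and pyrophosphate, had 268, 290 and 173 CPM in the 3 young cultures against 178, 115 and 237 CPM in the 3 old ones. The groups overlapped, since young replicate 3 lay below 2 of the old libraries. The log2 fold change was -0.46 (95% interval -1.20 to 0.28, adjusted p = 0.395 from edgeR), an interval that holds both no difference and more than a halving of the level. It was -0.23 without old replicate 2 and -0.73 without old replicate 3.

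Alpl (ENSRNOG00000013954), the phosphatase that degrades pyrophosphate, was detected at 5.36, 7.48 and 13.7 CPM in the 3 young cultures against 4.70, 5.21 and 11.4 CPM in the 3 old ones. Replicate 3 was the highest of both groups, and the spread within each age (coefficient of variation 49.0% in young and 52.4% in old) was larger than the difference of the means, 8.85 and 7.10 CPM. The log2 fold change of -0.32 (95% interval -1.45 to 0.82, adjusted p = 0.705 from edgeR) changed sign to 0.14 without young replicate 3 and was -0.83 without old replicate 3.

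The ratio of Enpp1 to Alpl counts within a library does not depend on the scaling between libraries. Its log2 value was 6.46, 7.07 and 5.67 in the young and 5.90, 5.65 and 3.61 in the old libraries. Old replicate 3, with the lowest Enpp1 and a high Alpl, had the lowest ratio, and young replicate 3 lay between 2 of the old libraries, so the groups overlapped. The means were 6.40 ± 0.70 in young and 5.05 ± 1.26 in old (SD, n = 3 each), and old minus young was -1.35, with a two-sided exact permutation p of 0.2 where 0.1 is the smallest value this design allows. Leaving out old replicate 3 brought the difference of old minus young to -0.63.

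Bmp2 and its transcription factors came next. Bmp2 (ENSRNOG00000071010), the osteogenic ligand, was sparse, with 114, 115 and 58 counts in the 3 young cultures against 53, 26 and 108 counts in the 3 old ones, or 0.500 to 2.53 CPM. Old replicate 3 reached the young range, whereas old replicates 1 and 2 lay below it. The log2 fold change was -0.65 (95% interval -1.96 to 0.67, adjusted p = 0.498 from edgeR). With 1 library left out it ran from -1.26 without old replicate 3 (adjusted p = 0.307 from edgeR) to -0.28 without old replicate 2 (adjusted p = 0.782 from edgeR), and it was -0.38 without young replicate 1.

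Runx2 (ENSRNOG00000020193), the transcription factor that commits cells to the osteoblast lineage, had the narrowest fold change interval of the 10 genes. It had 29.4, 34.9 and 31.7 CPM in the 3 young cultures against 29.2, 36.3 and 34.7 CPM in the 3 old ones. The 2 groups overlapped almost fully, with means of 32.0 ± 2.75 and 33.4 ± 3.72 CPM (SD, n = 3 each). The log2 fold change was 0.06 (95% interval -0.22 to 0.35, adjusted p = 0.771 from edgeR), so a doubling or halving of Runx2 mRNA lies outside the interval. The interval rests on the spread between these cultures, and mRNA is not the protein.

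Sox9 (ENSRNOG00000002607), the transcription factor of cartilage, had 63.9, 73.1 and 52.4 CPM in the 3 young cultures against 53.5, 36.1 and 37.6 CPM in the 3 old ones. The groups touched at 1 point, where old replicate 1 lay just above young replicate 3. Its log2 fold change was -0.58 (95% interval -1.05 to -0.10, unadjusted p = 0.0239 and adjusted p = 0.170 from edgeR). Without old replicate 1 the groups no longer overlapped and the log2 fold change was -0.78 (adjusted p = 0.0468 from edgeR), which remained under the fold threshold. In that setting the groups of 52.6% of all genes did not overlap and edgeR called 5.06% of them. Without any other library the adjusted p of Sox9 was 0.221 to 0.374 from edgeR.

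Msx1 and Msx2 are closely related homeobox genes that act downstream of BMP signals in limb, tooth and skull development, and only for Msx1 did the groups separate. Msx1 (ENSRNOG00000068566) had 26.2, 24.0 and 17.6 CPM in the 3 young cultures against 11.6, 9.54 and 11.1 CPM in the 3 old ones. The old libraries lay close together and below every young one, with means of 22.6 ± 4.42 and 10.7 ± 1.07 CPM (SD, n = 3 each), a 2.10-fold lower level in old. The log2 fold change was -1.07 (95% interval -1.49 to -0.65, standard error 0.18), with an adjusted p of 0.0600 from edgeR and 1.19e-05 from DESeq2, the smallest among the 10 genes. It ranged from -1.22 to -0.96 with each library left out in turn. DESeq2 did not call it without young replicate 1 or old replicate 2, where the fold change from edgeR was -0.96 and -0.99.

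Msx2 (ENSRNOG00000018355) had 2.84, 1.53 and 7.02 CPM in the 3 young cultures against 5.43, 2.96 and 2.99 CPM in the 3 old ones. Young replicate 3 was the highest and young replicate 2 the lowest of all, so the old libraries fell inside the young range. The means were 3.80 ± 2.87 and 3.79 ± 1.42 CPM (SD, n = 3 each), and the 95% interval of the log2 fold change ran from -1.39 to 1.39. The difference between the fold changes of Msx1 and Msx2 was not tested.

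The sequences in front of the 2 Msx genes are shown because the age groups separated for Msx1 and overlapped for Msx2. Each is the 250 bases before the gene start in the promoter table of RefSeq (build GRCr8, plus strand), at chr14:77185552-77185801 for Msx1 and chr17:11102034-11102283 for Msx2. Capitals mark the letters CCAAT on either strand.
Msx1: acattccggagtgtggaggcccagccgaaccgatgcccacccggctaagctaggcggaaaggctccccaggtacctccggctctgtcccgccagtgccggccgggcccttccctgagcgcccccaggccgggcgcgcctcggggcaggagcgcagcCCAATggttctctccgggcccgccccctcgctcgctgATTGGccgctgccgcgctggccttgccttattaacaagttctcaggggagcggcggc
Msx2: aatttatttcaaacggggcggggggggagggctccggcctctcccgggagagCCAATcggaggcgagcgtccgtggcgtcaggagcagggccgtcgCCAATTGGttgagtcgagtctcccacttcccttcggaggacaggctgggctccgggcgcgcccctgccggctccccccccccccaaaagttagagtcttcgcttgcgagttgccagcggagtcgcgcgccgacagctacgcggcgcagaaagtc
Both windows were rich in G and C (71.2% for Msx1 and 67.6% for Msx2). The word CCAAT occurred 2 times in the Msx1 window and 3 times in the Msx2 window, with 2 of the 3 overlapping, and 34% of all 33469 windows of this length in the table held it at least once. Neither window held the letters TATAAA on either strand, which 12.9% of all windows did. These matches describe the letters only.

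The secreted proteins closed the group. Spp1 (ENSRNOG00000043451), or osteopontin, an acidic phosphoprotein of bone that binds mineral and integrins, had 142, 187 and 217 CPM in the 3 young cultures against 118, 77.0 and 84.7 CPM in the 3 old ones. The groups did not overlap, although old replicate 1 and young replicate 1 were close. The means were 182 ± 37.6 and 93.1 ± 21.5 CPM (SD, n = 3 each), 1.96-fold lower in old, and the log2 fold change was -0.97 (95% interval -1.49 to -0.44, standard error 0.22). The adjusted p was 0.0948 from edgeR and 0.00214 from DESeq2, and the fold change fell short of the threshold of 1, so Spp1 was called by neither. Without old replicate 1 it was -1.17 with an adjusted p of 0.0343 from edgeR, and Spp1 was called, in a setting where 732 genes of the table were. Leaving out any of the other 5 libraries gave an adjusted p of 0.105 to 0.273 from edgeR, with the fold change nearest to 0 at -0.82 without young replicate 3.

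Spp1 is a known target of RUNX2 in bone, and the age groups separated for Spp1 while those of Runx2 overlapped. The 250 bases before a start of each gene are therefore shown (RefSeq promoter table, build GRCr8), for Spp1 at chr14:5619805-5620054 on the minus strand and for the upstream of the 2 Runx2 starts in the table at chr9:23664808-23665057 on the plus strand. Capitals mark the RUNX words TGTGGT or TGCGGT on either strand and the word TATAAA.
Spp1: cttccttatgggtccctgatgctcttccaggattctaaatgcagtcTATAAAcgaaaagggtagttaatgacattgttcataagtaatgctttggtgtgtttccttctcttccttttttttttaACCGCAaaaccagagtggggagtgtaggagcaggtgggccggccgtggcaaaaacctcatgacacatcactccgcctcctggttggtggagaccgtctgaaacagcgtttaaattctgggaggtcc
Runx2: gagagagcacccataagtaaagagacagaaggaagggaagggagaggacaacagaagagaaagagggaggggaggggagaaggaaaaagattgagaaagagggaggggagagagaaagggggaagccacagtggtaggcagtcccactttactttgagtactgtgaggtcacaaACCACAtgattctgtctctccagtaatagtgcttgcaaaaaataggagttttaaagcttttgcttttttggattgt
In the Spp1 window, 1 RUNX word (read as ACCGCA) lay 126 to 121 bases before the start, and 1 TATAAA lay 204 to 199 bases before it. The window of the upstream Runx2 start held 1 RUNX word (read as ACCACA), 76 to 71 bases before the start, and the window of the other Runx2 start held 0. A RUNX word was found in 19% of all windows of this length, so its presence is common, and these data do not show whether RUNX2 was bound there. Of the 10 genes, 6 had an entry in the promoter table, with Sox9, Mgp, Enpp1 and Bmp2 the others.

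Mgp (ENSRNOG00000005695), a small vitamin K-dependent protein that inhibits calcification of arteries and cartilage, had the widest fold change interval of the 10 genes. It had 96.4, 230 and 448 CPM in the young libraries. The old libraries had 15.5, 35.6 and 463 CPM, from 771, 1848 and 24826 counts, so depth does not limit these values. Old replicate 3 was the highest of all 6 libraries, while the other old libraries lay below every young one. The highest old library exceeded the lowest 29.9-fold, and a range at least as wide among the old libraries was found in 32 of the 12257 genes with a mean above 1 CPM (0.261%). Of those 32 genes, 10 had their highest old level in old replicate 3 and 17 in old replicate 2. Among the young libraries the range of Mgp was 4.65-fold, reached by 2.40% of the same genes.

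With all libraries, the log2 fold change of Mgp was -0.59 (95% interval -3.58 to 2.40, adjusted p = 0.795 from edgeR), an interval too wide to give a direction. It was -3.34 without old replicate 3 (adjusted p = 0.169 from edgeR, called by DESeq2, which called 4.50% of all genes in that setting) and 0.07 without young replicate 3. Of the other genes, Alpl shared the 2 highest libraries of Mgp, young replicate 3 and old replicate 3, and the 2 lowest, old replicates 1 and 2. Old replicate 3 was also the highest old library for Ankh and Bmp2, but the lowest for Enpp1. In that library Gas6, another vitamin K-dependent protein that was picked after its values were seen, had 2059 CPM, compared with 366 and 639 CPM in the other old libraries and 522 to 703 CPM in the young ones.

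Mgp binds and inhibits Bmp2, and the log2 ratio of their counts was 5.25, 6.91 and 8.57 in the young and 3.86, 6.15 and 7.84 in the old libraries. The ranges overlapped over most of their length. The means were 6.91 ± 1.66 and 5.95 ± 2.00 (SD, n = 3 each), a difference of -0.96 with a two-sided exact permutation p of 0.6, and it was 0.09 without old replicate 1.

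**Figure D2:**
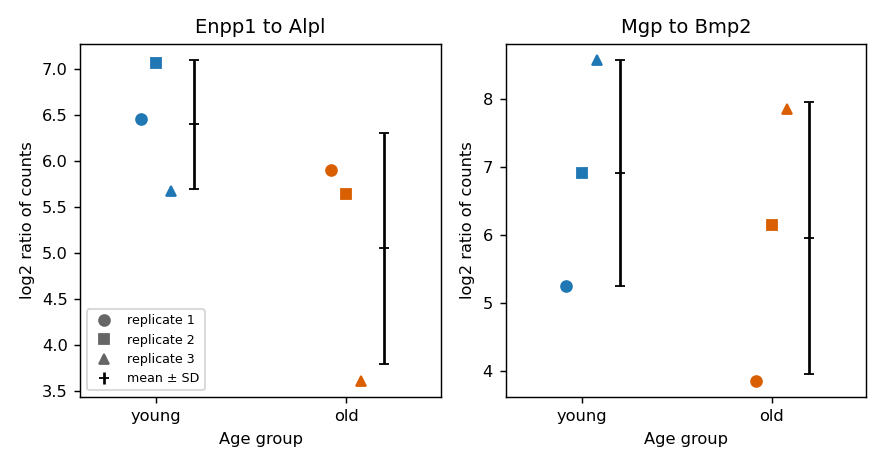
log2 ratio of counts within each library for Enpp1 to Alpl and for Mgp to Bmp2, by age group, with a marker shape for each replicate number and mean ± SD (n = 3) beside the points. The groups overlap in both panels, and old replicate 3 has the lowest Enpp1 to Alpl ratio at 3.61.

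**Figure D3:**
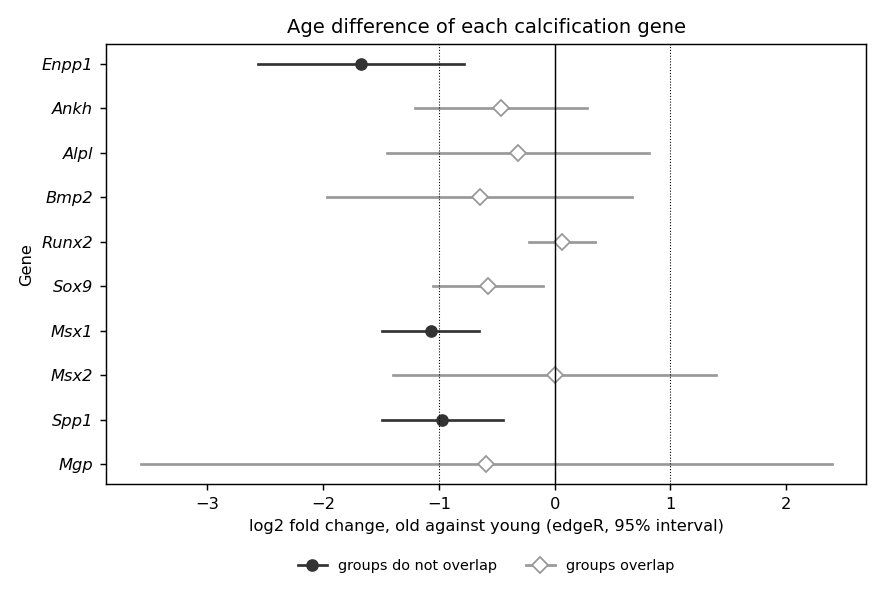
log2 fold change of old against young VSM cells for each gene (edgeR) with its 95% interval, where dotted lines mark -1 and 1 and filled points mark genes whose groups did not overlap. The intervals of Enpp1, Msx1, Spp1 and Sox9 lie below 0, that of Runx2 is the narrowest, and that of Mgp runs from -3.58 to 2.40.

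Other genes of mineralization were taken from 5 lists of related functions, in which edgeR called 0 genes and DESeq2 called 1 higher and 1 lower in each list. The 10 genes themselves are not counted in these lists. At an unadjusted p under 0.05, edgeR gave, by list, 4 of 11 osteoblast, 4 of 12 chondrocyte, 6 of 11 phosphate, 4 of 12 inhibitor and vitamin K, and 9 of 25 BMP genes. Over all genes that limit was passed by 22.6%, and DESeq2 called 5.56%. The non-overlap counts given below for each list stand beside 29.2% of all genes. Of 19 listed osteoblast genes 11 were in the table, and Sp7 (osterix), a transcription factor of osteoblast precursors, and Bglap and Dmp1, made by mature bone cells, were not among them. Of the 11, 6 were higher and 5 lower in old, with 4 and 1 not overlapping and a median log2 fold change of 0.21 (0.12 to 0.32 with 1 library left out, lowest without young replicate 2 and highest without old replicate 2). Tnfrsf11b (osteoprotegerin), a decoy receptor that blocks osteoclast formation and protects arteries from calcification in mice, had 180, 147 and 163 CPM in the 3 young cultures against 56.0, 22.0 and 37.9 CPM in the 3 old ones. All old libraries were well below the young ones, and the fold change was -2.08 on the log2 scale (adjusted p = 0.0574 from edgeR and 1.11e-07 from DESeq2, standard error 0.33). Dlx3, a homeobox gene of bone and tooth, went the other way at a low level, with 0.596 ± 0.291 CPM in young and 2.04 ± 0.195 CPM in old (SD, n = 3 each) and a fold change of 1.78 on the log2 scale (adjusted p = 0.106 from edgeR and 0.00354 from DESeq2). Collagen type I, the main bone collagen and also a general matrix gene, was picked after its values were seen, with Col1a1 at 17933 ± 3164 CPM in young and 30840 ± 1749 CPM in old (SD, n = 3 each, log2 fold change 0.78, adjusted p = 0.173 from edgeR). The adjusted p of Col1a1 from DESeq2 was 0.000277, with the fold change under the threshold.

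Of 19 listed chondrocyte genes 12 were in the table, and Col2a1, the defining collagen of cartilage, was not. Of the 12, 9 were higher and 3 lower in old, with 4 and 1 not overlapping and a median of 0.63, which was 0.35 without old replicate 3. Among the higher genes without overlap, Sox6 had 2, 6 and 8 counts in young and 15, 10 and 10 in old. Col9a3 had 10, 2 and 6 counts in young and 15, 26 and 19 in old. The deposited counts were already filtered for low counts, and genes this sparse in young could pass through the old group. The number of higher genes in this list is limited by that. Acan, the large aggregating proteoglycan of cartilage that smooth muscle also makes, had 144, 373 and 288 CPM in the 3 young cultures against 23.8, 5.71 and 3.77 CPM in the 3 old ones. Of the genes in the 5 lists it lay farthest from 0, at -4.60 for the log2 fold change (adjusted p = 0.0648 from edgeR and 9.51e-10 from DESeq2, standard error 0.83). Prg4 (lubricin) had 1.55, 1.66 and 1.57 CPM in the 3 young cultures against 2.57, 10.5 and 2.37 CPM in the 3 old ones, where old replicate 2 carried most of the old mean (log2 fold change 1.69, adjusted p = 0.186 from edgeR and 0.0479 from DESeq2).

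Of 12 listed genes of phosphate and pyrophosphate handling 11 were in the table, 5 higher and 6 lower in old, with 3 and 2 not overlapping and a median of -0.66, which was -0.34 without old replicate 3 and -0.43 without young replicate 3. Enpp3, an ectonucleotidase of the same family as Enpp1, lay in the opposite direction to it. Its level was 76.7, 124 and 79.1 CPM in the 3 young cultures against 216, 252 and 360 CPM in the 3 old ones, with all old libraries above the young ones, and its fold change was 1.56 on the log2 scale (adjusted p = 0.0638 from edgeR and 5.17e-06 from DESeq2, standard error 0.27). Entpd1 (CD39), which removes extracellular ATP, had a log2 fold change of -1.51 (adjusted p = 0.145 from edgeR and 0.0118 from DESeq2), and its groups overlapped narrowly, at 54.4 CPM in young replicate 1 and 54.9 CPM in old replicate 3. Chosen after their values were seen, Slc20a1 (PiT-1), the phosphate transporter linked to smooth muscle calcification, had 593 ± 147 and 308 ± 73.0 CPM (SD, n = 3 each, log2 fold change -0.94, adjusted p = 0.119 from edgeR), and Phospho1, a phosphatase of matrix vesicles, had 2.63 ± 0.627 and 5.10 ± 0.368 CPM (SD, n = 3 each, log2 fold change 0.95, adjusted p = 0.106 from edgeR), in young and old cells. From DESeq2 the adjusted p was 0.00752 for Slc20a1 and 0.00327 for Phospho1, but neither reached the fold threshold.

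Of 14 listed calcification inhibitors and vitamin K cycle genes 12 were in the table, 7 higher and 5 lower in old, with 1 and 3 not overlapping and a median of 0.17, which was -0.06 without old replicate 3, 0.035 without young replicate 3 and 0.30 without young replicate 2. The list was broad and also held Anxa2, Anxa5, Anxa6, S100a4, Klf4, Cd44 and Nqo1, not all of which are inhibitors. Its counts and median therefore do not describe inhibitors alone. Besides Tnfrsf11b, which this list shares, DESeq2 called Klf4, a transcription factor of smooth muscle phenotype switching, at 60.3, 58.9 and 40.4 CPM in the 3 young cultures against 114, 124 and 136 CPM in the 3 old ones. All old libraries lay above the young ones, and the fold change was 1.23 on the log2 scale (adjusted p = 0.0545 from edgeR and 1.51e-07 from DESeq2, standard error 0.17). Ggcx and Vkorc1, the carboxylase and the reductase of the vitamin K cycle that Mgp depends on, had log2 fold changes of 0.27 and 0.29 (adjusted p of 0.238 and 0.309 from edgeR, 0.214 and 0.339 from DESeq2) and were picked for that role after the values were seen.

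Of 27 listed BMP signaling genes 25 were in the table, 11 higher and 14 lower in old, with 5 and 7 not overlapping and a median of -0.06, too close to 0 to have a direction, which was 0.06 without young replicate 3, -0.092 without young replicate 2 and -0.15 without old replicate 1. Chrd (chordin), a secreted BMP antagonist, had 14.6, 11.3 and 7.53 CPM in the 3 young cultures against 20.9, 24.2 and 45.3 CPM in the 3 old ones (log2 fold change 1.43, adjusted p = 0.113 from edgeR and 0.00388 from DESeq2). Eng (endoglin), a co-receptor of BMP9 and TGF-beta, had 132, 349 and 87.2 CPM in the 3 young cultures against 47.9, 8.64 and 4.89 CPM in the 3 old ones (log2 fold change -3.21, adjusted p = 0.151 from edgeR and 0.0271 from DESeq2). For both, the old libraries lay on 1 side of the young ones. The Id genes, immediate transcriptional targets of BMP signals, were picked after their values were seen. Id1, Id3 and Id4 had log2 fold changes of -0.91, -0.64 and -0.83 with no overlap of the groups (adjusted p of 0.0741, 0.136 and 0.0982 from edgeR), whereas Id2 had 0.16 with overlapping groups. From DESeq2 the adjusted p was 0.000314, 0.0263 and 0.00415 for Id1, Id3 and Id4 and 0.884 for Id2. None of them reached the fold threshold.

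**Figure D4:**
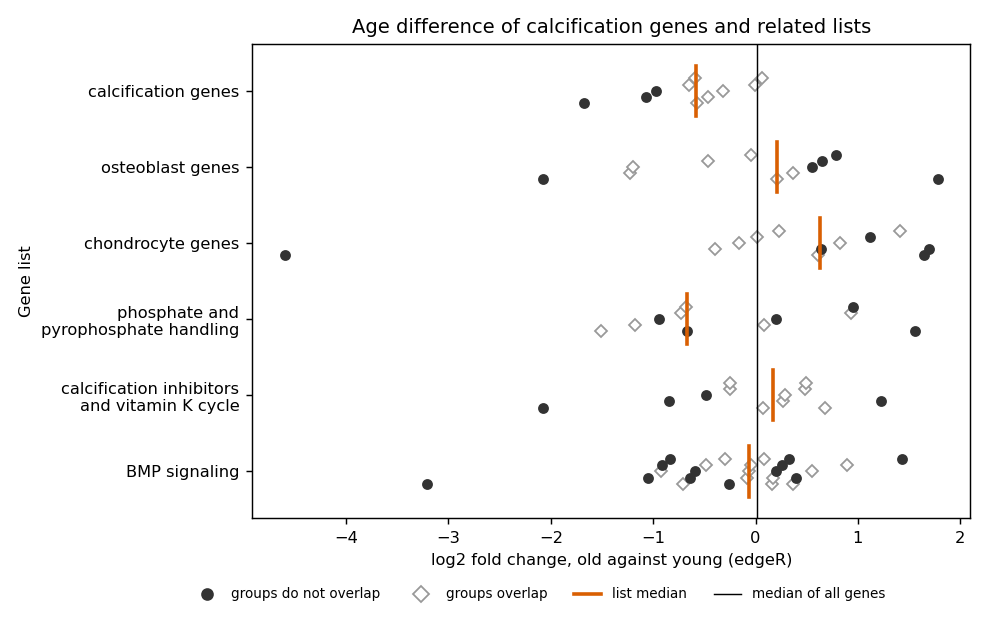
log2 fold change of old against young (edgeR) for the 10 calcification genes and for the genes of 5 related lists, where filled points mark genes whose groups did not overlap, orange bars list medians and the black line the median of all genes. The medians run from -0.66 to 0.63, and Acan is the point farthest left at -4.60.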

How the data were processed

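Polyadenylated RNA of cultured VSM cells was sequenced as stranded paired-end libraries, 1 for each of 3 young and 3 old rats. The authors trimmed reads with Trim Galore 0.6.7, aligned them with STAR 2.7.10b to the rat assembly Rnor 6.0, counted them with featureCounts (Subread 2.0.8) and deposited raw counts per gene, already filtered for low counts. How featureCounts treated strand, multi-mapping reads and mates was not stated. Even numbers made up 68.7% to 71.1% of a library's low counts (1 to 19), as counting both mates of a pair would leave. Each library total also exceeds the reads per sample that the authors give. Counts may therefore carry more counting error than their size implies. The table carries Ensembl identifiers and no coordinates, whereas the authors name a RefSeq annotation of that assembly. Which annotation was counted is therefore uncertain.

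Counts were scaled by TMM and tested over all 14475 genes with edgeR 4.0.16 (quasi-likelihood F test, Benjamini-Hochberg adjustment, no covariates, R 4.3.3). Intervals are 95% intervals from the fold change, its standard error and the moderated degrees of freedom. DESeq2 1.42.0 (independent filtering set to 0.05) and limma-voom (limma 3.58.1) were run beside it. The fits were tested on simulated data. Ratios were compared with exact permutation tests over libraries. Promoter sequences were read by symbol from RefSeq (GRCr8). No column was left unused.

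The genes, lists and tests were chosen with earlier results of these data known. Named from the lists were genes called by either tool. Others are marked as chosen after their values were seen. The 5 lists and the marker lists were compared by counts and medians, without a set test. The p-values of edgeR, DESeq2 and limma-voom set the age difference against the spread between these cultures. The exact permutation p-values rank it among relabelings of the libraries.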

Additional observations from a re-analysis of the deposited data

How the results depend on the processing

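The count of called genes changed with the setting, and so did the fold changes of some of the calcification genes. Over the whole table edgeR called 1 gene, 65 among genes with at least 1 CPM in 3 libraries, 381 at an adjusted p under 0.1, and 0 to 732 with each library left out in turn (732 without old replicate 1). DESeq2 called 805, or 793 at its default filtering, and limma-voom 0. Of the 10 calcification genes, 2 were called by DESeq2 under either filtering, 2 (Enpp1 and Msx1) by edgeR at an adjusted p under 0.1, and 0 to 2 by edgeR with a library left out (Msx1 and Spp1 without old replicate 1). With a library left out DESeq2 called 1 to 3 of the 10, the fewest without old replicate 2, and 3.81% to 9.51% of all genes. With a library left out, the groups did not overlap for 3 to 6 of the 10 and for 36.2% to 52.6% of all genes. The 6 came without young replicate 3 (38.7% of all genes, with Sox9 and Ankh lower and Msx2 higher in old added) or without old replicate 3 (37.5% of all genes, with Alpl, Mgp and Bmp2 added, all lower). Msx2, at a log2 fold change of about 0, turned to 0.031 with library size only, 0.25 with limma-voom and 0.23 with the replicate block, and ranged from -0.38 to 0.80 with a library left out. The corresponding ranges were -0.73 to -0.23 for Ankh, -1.26 to -0.28 for Bmp2, -0.83 to 0.14 for Alpl, -3.34 to 0.072 for Mgp, -0.0038 to 0.15 for Runx2 and -1.90 to 0.087 for the Mgp to Bmp2 ratio. Of 130 recomputed fold changes, 115 kept their direction and whether the gene was called, 6 became called and 9 changed sign. List medians moved by less than the replicate spread in 64 of 65 recomputations, although leaving out 1 library moved a median of each list by over 1.5 times, as given beside them. Outside the alternatives given here, the cause of these changes was not tested. Deviations of same-numbered libraries from their group mean correlated at 0.06, 0.31 and 0.29 across genes, and those of differently numbered libraries at -0.45 to 0.35. With 3 libraries per age these values cannot decide whether replicate numbers pair the libraries, since centering within an age ties them together. With the replicate block edgeR called 1 gene and 0 of the 10, with 5 of the 10 and 22.5% of all genes at an unadjusted p under 0.05. Counts were low for Bmp2 and Msx2, and Msx2, Mgp and Alpl varied widely between the 3 cultures of an age. What made their intervals wide was not tested.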
